A study of Homo sapiens with 8 samples.

Results

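To ask which genes differ between soft matrices that hold the same reconstituted basement membrane (rBM) but a different second polymer, RNA-seq of MCF10A cells in soft col:rBM gels was compared with that in soft IPNs. MCF10A is a nontransformed, spontaneously immortalized human mammary epithelial cell line. Soft IPNs are interpenetrating networks of rBM and alginate to which no calcium was added, and in soft col:rBM gels type 1 collagen (col-1, from rat tail) stood in for the alginate. Cells stayed encapsulated for 7 days, and the RNA was then taken from the whole gel. Libraries were assigned to it by their gel label, and it rests on 4 of the 8 libraries of the series, 2 of soft IPN and 2 of soft col:rBM. The replicates were independent trials of 1 cell line, and replicate 1 and replicate 2 of each gel are called trial 1 and trial 2 here. That replicates of the same number share a trial across gels is inferred, as the paper does not state it. The other 4 libraries came from stiff IPNs (rBM and calcium-crosslinked alginate) and stiff col gels (col-1 without rBM), and were used only to follow the genes found in soft gels. Addition of col-1 and loss of alginate cannot be told apart in this design. The 2 soft gels may also differ in stiffness and architecture, which were not compared here.

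The basement membrane is a sheet of laminin and type 4 collagen that normally underlies mammary epithelial cells, whereas col-1 belongs to the stroma beyond it. Epithelial cells bind laminin through the α6β4 and α3β1 integrins, and fibrillar collagen through the α1β1 and α2β1 integrins and the DDR receptors. Alginate is an inert polysaccharide without binding sites for mammalian integrins. Mammary epithelial cells also express acute-phase, complement and antimicrobial genes, a set of cornified envelope genes shared with the epidermis, and the ID genes, whose transcription is raised by BMP signaling through SMAD proteins.

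The promoters of ID2 and ID3, 2 genes that rose, and of MUC1 and CFB, 2 genes that fell, are shown because these genes lead the descriptions below. They are the 250 bases before the RefSeq start in GRCh38.p14, read 5′ to 3′ on the gene's strand, and capitals mark the motifs searched. ID2 lies at chr2:8681806-8682055 (plus strand), ID3 at chr1:23559502-23559751 (minus strand), MUC1 at chr1:155192916-155193165 (minus strand, 1 of 2 listed starts) and CFB at chr6:31945845-31946094 (plus strand).
ID2: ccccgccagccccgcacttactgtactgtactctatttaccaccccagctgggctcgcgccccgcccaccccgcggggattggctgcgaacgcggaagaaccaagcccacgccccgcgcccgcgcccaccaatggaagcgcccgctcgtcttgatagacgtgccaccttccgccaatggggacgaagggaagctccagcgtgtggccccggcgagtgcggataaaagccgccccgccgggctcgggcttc
ID3: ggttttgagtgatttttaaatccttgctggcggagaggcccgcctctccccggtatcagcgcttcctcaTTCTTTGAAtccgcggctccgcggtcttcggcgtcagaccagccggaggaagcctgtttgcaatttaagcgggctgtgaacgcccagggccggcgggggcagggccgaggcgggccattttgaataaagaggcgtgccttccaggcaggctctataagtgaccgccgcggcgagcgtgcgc
MUC1: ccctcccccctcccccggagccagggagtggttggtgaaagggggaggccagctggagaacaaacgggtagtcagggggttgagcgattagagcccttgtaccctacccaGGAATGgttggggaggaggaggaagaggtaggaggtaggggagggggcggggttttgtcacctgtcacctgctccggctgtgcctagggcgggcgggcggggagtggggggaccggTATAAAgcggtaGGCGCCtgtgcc
CFB: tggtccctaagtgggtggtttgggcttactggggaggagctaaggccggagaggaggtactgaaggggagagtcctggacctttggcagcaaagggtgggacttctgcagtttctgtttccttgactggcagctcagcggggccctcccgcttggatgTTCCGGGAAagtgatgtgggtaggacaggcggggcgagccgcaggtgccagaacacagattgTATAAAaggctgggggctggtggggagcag

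The 7 motifs were searched on both strands, and matches were allowed to overlap. They were TGANTCA (AP-1), GGGANNTTC (NF-kB), TTCNNNGAA (STAT proteins), TTGCNNAA (C/EBP), GGCGCC (SMADs in the BMP pathway), GGAATG (TEAD) and TATAAA (the TATA box). CFB held a STAT match 92 bases before the start and a TATA box at 30 bases. MUC1 held a TEAD match at 140 bases, a TATA box at 24 and an SMAD match at 12 bases before its start. ID3 held 1 STAT match, 181 bases before the start, and ID2 held none of the 7 motifs in this window. Of the promoters of 27305 genes 6.6% held the AP-1 motif, 9.1% the C/EBP motif, 6.8% the STAT motif, 11.9% the TEAD motif, 16.1% the SMAD motif, 3.6% the NF-kB motif and 11.1% the TATA box. Promoters were at hand for 30 of the 42 genes called below. Of these, the TATA box was in 6 of 19 lower and 1 of 11 higher genes, the TEAD motif in 3 and 0, the SMAD motif in 2 and 2, the AP-1 motif in 2 and 1, the STAT and C/EBP motifs in 1 and 2 each, and the NF-kB motif in 1 and 1 (S100A9 and FAM110C). A match of letters is a description and not a binding site.

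The values are normalized counts, that is read counts scaled by 1 factor per library and rounded. They summed to between 15588237 and 17999273 in the 4 soft gel libraries. The reads counted on genes behind them were estimated from the scaling factors at between 14377463 and 17773680. The paper gives a higher depth, of reads left after filtering, and does not state whether reads or read pairs were counted. The detection limit was set at 3 reads, which correspond to 2.67 to 3.73 normalized counts depending on the library, and covers counting error only. Soft col:rBM replicate 2 stood apart in that its 100 most abundant genes held 27.1% of all normalized counts, against 31.8 to 32.7% in the other soft gel libraries. All 12 mammary epithelial markers were above the filter, and their summed level ran from 124755 to 175241 normalized counts per soft gel library. Of the fibroblast, endothelial and leukocyte markers 3 each passed the filter, with summed levels of 937 to 1658, 165 to 456 and 1822 to 5824. At or under the detection limit in every soft gel library were 6 of 10 fibroblast, 5 of 9 endothelial and 5 of 10 leukocyte markers. Among these were PDGFRA, COL1A2, COL3A1, LUM, CDH5, VWF, PTPRC and CD3E, whereas the fibroblast markers DCN, COL1A1 and FAP passed the filter. CDKN2A and CDKN2B, whose locus is lost in MCF10A, were also at or under the detection limit.

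Of the 12893 genes with at least 10 normalized counts in 2 or more of the 4 libraries, 42 (0.326%) were called differentially expressed, 13 higher (0.101%) and 29 lower (0.225%) in soft col:rBM. A gene was called at an adjusted p under 0.05 in limma's moderated test of log2(normalized count + 1), with the trial as a block and Benjamini-Hochberg adjustment over all genes tested. Fold changes below are on this log2(normalized count + 1) scale, and understate the change of low genes. Each of the 42 moved the same way in both trials, as did 54.1% of all genes tested. In 34 of them both soft col:rBM libraries lay on 1 side of both soft IPN libraries (20.6% of all genes). Over all genes tested the differences were centered near 0, with a median log2 fold change of -0.003 and quartiles of -0.15 and 0.15. As these are bulk samples, fewer cells that express a gene and less RNA per cell cannot be told apart.

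The trial moved more genes than the gel did. A difference of at least 1 (log2) was found in 1338 genes (10.4%) between the trials and in 238 genes (1.85%) between the gels. The first principal component of the 4 libraries, with 70% of the variance, separated trial 1 from trial 2, and the second, with 18.9%, separated soft col:rBM from soft IPN. The differences seen in trial 1 and in trial 2 correlated across genes with r = 0.25, where genes are not independent replicates. Without the block, limma called 0 genes, the lowest adjusted p was 1, and 141 genes (1.09%) had an unadjusted p under 0.05, against 1177 (9.13%) with it. A fit of all 8 libraries with the block called 3 genes (SAA1, PGBD5 and POSTN), and 0 when any 1 of the 4 soft gel libraries was left out of it. With the trial ignored, the smallest two-sided p that an exact permutation test allows for 2 libraries against 2 is 0.333. Permuting within trials allows fewer arrangements and no smaller p, which leaves the calls to limma's pooling of variance over genes. By a plain count, 107 genes (0.83%) moved by at least 1 (log2) the same way in each trial, 40 higher and 67 lower, and 14 moved that far in opposite directions. This count was added after the data were seen, and it holds 29 of the 42 called genes.

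**Figure D1:**
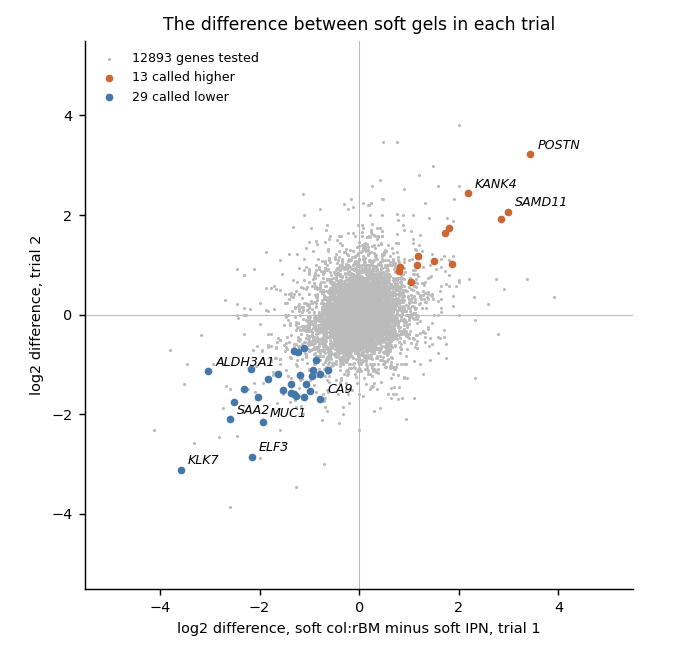
Log2 difference between soft col:rBM and soft IPN in trial 1 (x axis) and in trial 2 (y axis) for the 12893 genes tested (grey), with the 13 genes called higher in orange and the 29 called lower in blue. The called genes lie at the upper right and lower left, while the bulk of genes forms a cloud around 0.

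SAA1, SAA2 and SERPINA3, which encode acute-phase proteins, and the complement genes CFB and C1R were called lower in soft col:rBM than in soft IPN. They are described 1 by 1, since no list of acute-phase or complement genes was counted. SAA1 (hg19 chromosome 11, 18287807 to 18291524), a serum amyloid A protein made in the acute-phase response, had 2126 and 2361 normalized counts in soft IPN trials 1 and 2, and 373 and 696 in soft col:rBM. It was thus 4.39-fold lower (log2 fold change -2.13, SE (standard error) 0.17, limma adjusted p = 0.000701). Both soft col:rBM libraries lay far below both soft IPN libraries. Its neighbor SAA2 (chromosome 11, 18260770 to 18270215) had 151 and 72 normalized counts in soft IPN and 24 and 16 in soft col:rBM (log2 fold change -2.35). SAA1 and SAA2 are near-identical in sequence and multimapped reads were removed, so the split of reads between them is uncertain. SERPINA3, the acute-phase protease inhibitor α1-antichymotrypsin, went from 5671 and 4056 to 1584 and 1655 normalized counts (log2 fold change -1.57). Its soft col:rBM libraries were close to each other and below both soft IPN libraries.

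Of the complement genes, CFB (chromosome 6, 31913427 to 31919863), whose product is factor B of the alternative pathway, had 485 and 415 normalized counts in soft IPN and 97 and 147 in soft col:rBM. This is a log2 fold change of -1.90 with a standard error of 0.22 (limma, adjusted p = 0.00298). C1R, a protease of the classical pathway, went from 455 and 257 to 156 and 89 normalized counts (log2 fold change -1.53), with no overlap between the gels. C3, the central component of complement, had 41634 and 48032 normalized counts in soft IPN and 35597 and 29813 in soft col:rBM and was not called (log2 fold change -0.46, adjusted p = 0.595). CFB and C1R overlap the genes C2 and C1RL in the annotation, so some of their reads may be ambiguous.

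In the list of cytokines, chemokines and NF-kB response genes, 29 of 35 members were tested, 0 were called higher and 3 lower (SAA1, SAA2 and CFB). Its median log2 fold change was -0.37, against -0.003 for all genes, with -0.36 in trial 1 and -0.45 in trial 2. Of the 29, 23 were lower in soft col:rBM, against 50.5% of all genes tested, and 19 were lower in both trials. Among the cytokines of the list, the log2 fold changes were 0.03 for IL1A, -0.32 for IL1B and -0.24 for CSF3, and none of these was called. BIRC3, an inhibitor of apoptosis induced by NF-kB, gave -0.95 (adjusted p = 0.0896) and the chemokine CXCL1 gave -0.72 (adjusted p = 0.118), and neither was called. These 5 genes were named after their values were seen, like C3 above. IL6-family and STAT3 genes were close to 0, with a median of -0.07 over 19 genes, SERPINA3 being the only member called.

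Cornified envelope and squamous differentiation genes had the lowest median of the 31 lists. Of the list's 35 members 12 passed the filter, of which 0 were called higher and 4 lower, at a median log2 fold change of -1.29. Trial 1 alone gave -1.15 and trial 2 alone -1.45. The median became -0.57 without soft col:rBM replicate 2 and -1.94 without soft col:rBM replicate 1, in a fit where 18 members could be tested and none was called. Of the 12 members 11 were below 0, against 50.5% of all genes tested, and 10 were lower in both trials, against 27.7%. Members such as KLK7, KLK10 and SPRR1A passed the filter through soft IPN alone and could only come out lower. These counts and the median are thus partly set by the filter. TGM1 (chromosome 14, 24718320 to 24733638), the transglutaminase that crosslinks the cornified envelope, had 439 and 1388 normalized counts in soft IPN and 176 and 459 in soft col:rBM. This is a log2 fold change of -1.45 with a standard error of 0.15 (limma, adjusted p = 0.00205). The trials differed about as much as the gels did, so that the libraries overlapped, and TGM1 fell within each trial. S100A8, a subunit of the antimicrobial protein calprotectin, went from 623 and 877 to 241 and 332 normalized counts (log2 fold change -1.38). Its partner S100A9 went from 1673 and 1720 to 731 and 742 (log2 fold change -1.20), with almost no spread between trials.

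KLK7, a serine protease of the shedding epidermis, had 23 and 25 normalized counts in soft IPN and 1 and 2 in soft col:rBM. Both latter values are under the detection limit, so it was at least 7.5-fold lower against a floor of 3 reads per library (adjusted p = 0.0361 from limma's test). KLK10 had 17 and 28 normalized counts in soft IPN and 2 and 1 in soft col:rBM, at least 7.03-fold lower against the same floor, and was not called (adjusted p = 0.0596). Setting both to their bounds left the list's median at -1.29. SPRR1A, a cornified envelope precursor, had 23 and 65 and then 5 and 8 normalized counts (adjusted p = 0.0564). Its relative SPRR1B gave a log2 fold change of -0.59 (adjusted p = 0.169). IVL (involucrin), another precursor, lay on the other side, with 42 and 126 normalized counts in soft IPN and 103 and 245 in soft col:rBM (log2 fold change 1.11, adjusted p = 0.0896), and was not called. KLK10, the SPRR genes and IVL were named after their values were seen. PPL (periplakin, which links the envelope to keratin filaments) and PI3 (elafin, an elastase inhibitor) lie outside the list. Both were also called lower, by 1.46 and 1.62 on the log2 scale, with overlapping libraries. TGM5, another transglutaminase, went the other way, from 21 and 18 to 71 and 42 normalized counts. Its log2 fold change was 1.44 (limma adjusted p = 0.147), and it was not called. PPL, PI3, TGM5 and S100A9 were likewise named after their values were seen.

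**Figure D2:**
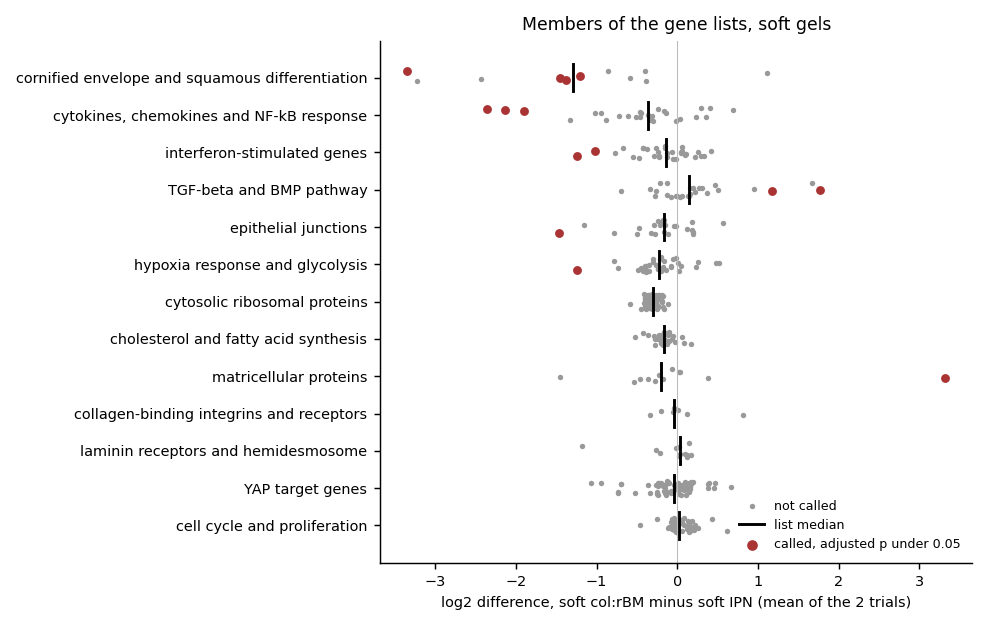
Log2 difference between soft col:rBM and soft IPN (x axis, mean of the 2 trials) for the tested members of 13 gene lists (rows). Red points are called genes, grey points are not called and black bars are list medians, and the cornified envelope list has its median at -1.29 and 4 called members.

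MUC1 (chromosome 1, 155158300 to 155162707), a mucin of the apical membrane of luminal cells, had the lowest adjusted p of all genes. It had 1998 and 2608 normalized counts in soft IPN and 520 and 582 in soft col:rBM, 4.14-fold lower (log2 fold change -2.05, SE 0.13, limma adjusted p = 0.000129). The difference was -1.94 in trial 1 and -2.16 in trial 2. Of the other luminal genes none was called, and the 9 tested had a median of -0.21. ELF3 (chromosome 1, 201977073 to 201986311), an epithelium-specific ETS transcription factor, had 240 and 64 normalized counts in soft IPN and 53 and 8 in soft col:rBM (log2 fold change -2.51, adjusted p = 0.00486). It fell in each trial, while its level in trial 2 was low in both gels. KRT17, a keratin of basal and stressed epithelium, was called lower (log2 fold change -1.09), from 5552 and 18767 to 2883 and 7944 normalized counts. Its libraries overlapped and the other 10 basal genes tested were not called.

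Of 25 epithelial junction genes tested 1 was called, CLDN1, a claudin of the tight junction, with 112 and 166 normalized counts in soft IPN and 43 and 55 in soft col:rBM (log2 fold change -1.47, adjusted p = 0.0376). The median of the list was -0.16, and 0.02 without soft col:rBM replicate 2. PLEKHA7 (chromosome 11, 16798844 to 17035962), an adherens junction protein outside that list, rose from 210 and 105 to 472 and 211 normalized counts (log2 fold change 1.08). Of the 13 tested genes of the epithelial-mesenchymal transition list, 0 were called higher and 1 lower, the calcium-binding protein gene S100A4 (log2 fold change -0.87). Its reads may be shared with the overlapping gene S100A3.

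Of 32 interferon-stimulated genes tested 0 were called higher and 2 lower, IFITM2 and IFITM3, which restrict the entry of viruses. IFITM3 had 2654 and 3304 normalized counts in soft IPN and 1386 and 1537 in soft col:rBM (log2 fold change -1.02), and IFITM2 1451 and 1806 against 688 and 685 (log2 fold change -1.24). The genes are near-identical neighbors on chromosome 11, so reads may be split between them unevenly. The list as a whole had a median of -0.14, and 0.00 without soft IPN replicate 1.

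Among other called genes, ALDH3A1, an aldehyde dehydrogenase, fell from 548 and 393 to 66 and 178 normalized counts (log2 fold change -2.09, with -3.03 in trial 1 and -1.14 in trial 2). Its call (limma adjusted p = 0.0373) was lost in 14 of 17 alternatives, with adjusted p values from 0.0349 to 1. RHOV, a small GTPase gene, fell from 109 normalized counts in each soft IPN library to 26 and 34 (log2 fold change -1.84). AQP9, ACOT11, CA9, MIR22HG, PPL and SOD2 overlap another listed gene on the other strand, and strand was not kept by the library kit. A further set was named after the values were seen. It holds the T cell ligands CD70 (-1.40) and TNFSF9 (-0.89), the mitochondrial superoxide dismutase SOD2 (-1.02) and the surfactant protein gene SFTPB (-1.39). The sodium pump regulator FXYD3 (-0.99), the membrane protein gene PDZK1IP1 (-1.26) and the lysosomal protein gene LAPTM5 (-0.99) were called lower as well. Libraries of the 2 gels overlapped for LAPTM5, SFTPB and TNFSF9. LAPTM5 differed more between trials than between gels, with 3706 and 323 normalized counts in soft IPN and 2159 and 140 in soft col:rBM. CD70 had 1049 and 764 normalized counts in soft IPN and 339 and 336 in soft col:rBM.

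**Figure D3:**
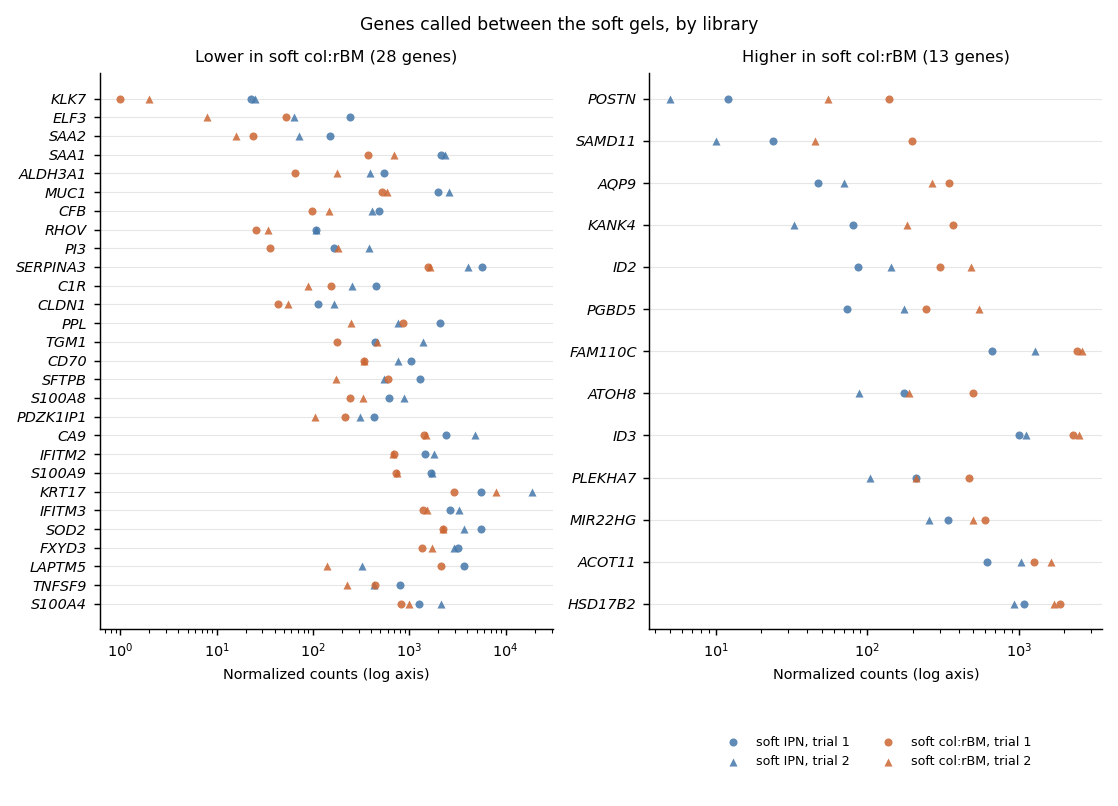
Normalized counts (x axis, log scale) of 41 of the 42 called genes in each of the 4 soft gel libraries, with genes in rows ordered by log2 fold change. Circles are trial 1 and triangles trial 2, blue is soft IPN and orange soft col:rBM, and the gels are separate in 34 of the genes.

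ID genes, targets of BMP signaling, were among those higher in soft col:rBM. ID2 (chromosome 2, 8818975 to 8824591), an inhibitor of basic helix-loop-helix transcription factors, had 87 and 144 normalized counts in soft IPN and 304 and 485 in soft col:rBM. It was 3.41-fold higher (log2 fold change 1.77, SE 0.18, limma adjusted p = 0.00205). ID3 (chromosome 1, 23884417 to 23885992), a relative with the same role, had 1002 and 1109 normalized counts in soft IPN and 2261 and 2505 in soft col:rBM (log2 fold change 1.17, standard error 0.12). Both genes rose alike in the trials, ID3 by 1.17 in each, and the gels did not overlap.

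Of the 27 TGF-beta and BMP pathway genes tested these 2 were called higher and 0 lower, and the median was 0.14. In both trials 12 of the 27 were higher and 3 lower, against 26.4% and 27.7% of all genes tested. Of genes that were not called, the ligand genes BMP2 and TGFB1 gave log2 fold changes of -0.27 and 0.20, the receptor genes BMPR2 and BMPR1A 0.14 and 0.04, and SMAD4, which encodes the common SMAD, 0.05. ID1, a relative of ID2 and ID3, had 7874 and 4028 normalized counts in soft IPN and 10915 and 5840 in soft col:rBM (log2 fold change 0.50, adjusted p = 0.326). SMAD6, an inhibitory SMAD, had 22 and 12 against 60 and 49 (log2 fold change 1.68, adjusted p = 0.0931), and SKIL, a SMAD corepressor, 352 and 235 against 565 and 553 (log2 fold change 0.96, adjusted p = 0.0526), and none of the 3 was called. The genes of this paragraph other than ID2 and ID3 were named after their values were seen. ATOH8, a basic helix-loop-helix factor outside the list, was called higher, from 176 and 88 to 497 and 188 normalized counts (log2 fold change 1.29).

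The largest rise was in POSTN (chromosome 13, 38136720 to 38172981), which encodes the matricellular protein periostin. It had 12 and 5 normalized counts in soft IPN and 139 and 55 in soft col:rBM (log2 fold change 3.33, SE 0.36, limma adjusted p = 0.00205). POSTN is thus low in soft IPN, at a few times the detection limit, and the other 11 matricellular genes tested were not called (list median -0.20). Fibroblasts also express POSTN. Of 10 fibroblast markers, PDGFRA, COL1A2, COL3A1, LUM, THY1 and DPT were at or under the detection limit in each soft gel library and 3 (DCN, COL1A1 and FAP) passed the filter. The summed level of the 10 was 1658 and 1175 normalized counts in soft IPN and 1230 and 937 in soft col:rBM, lower in soft col:rBM in each trial, and its part in the result was not tested. SAMD11 rose from 24 and 10 to 196 and 45 normalized counts (log2 fold change 2.52), and it overlaps NOC2L on the other strand. AQP9, a channel for water and glycerol, rose from 47 and 70 to 345 and 268 (log2 fold change 2.39), and KANK4, of a family of actin-regulating adaptor proteins, from 80 and 33 to 366 and 183 (log2 fold change 2.31). The 4 genes did not overlap between the gels, although in SAMD11 the 2 soft col:rBM libraries lay far apart. PGBD5, a gene derived from a transposase, rose from 74 and 176 to 245 and 548 (log2 fold change 1.67), and FAM110C from 665 and 1285 to 2415 and 2603 (log2 fold change 1.44). The host transcript MIR22HG rose by 0.88 on the log2 scale, which says nothing of the miRNA. HSD17B2, which oxidizes estradiol, and the acyl-CoA thioesterase gene ACOT11, named after their values were seen, rose by 0.83 and 0.84.

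Receptors for the matrix were not among the called genes. ITGA2, which binds col-1 with ITGB1, had 2467 and 2659 normalized counts in soft IPN and 2428 and 2534 in soft col:rBM (log2 fold change -0.05, standard error 0.13). ITGA1 gave -0.04, ITGB1 0.12 and the collagen receptor kinase gene DDR1 -0.21. DDR2 was near the detection limit, with 4 and 10 against 9 and 16 normalized counts. The 7 tested genes of the collagen-binding list had a median of -0.04. Of the laminin receptor genes, ITGA3 gave 0.04, ITGA6 0.17 and ITGB4 0.02, and the standard errors of these 3 genes were 0.21, 0.17 and 0.26. A median of 0.03 was found for the 12 laminin receptor and hemidesmosome genes, as 0.27 in trial 1 and -0.27 in trial 2. None of the 15 basement membrane genes and 22 interstitial matrix genes tested was called, and their medians were -0.13 and -0.19.

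Of the 63 tested genes of the YAP target list of the study 0 were called, and the median log2 fold change was -0.04, from 0.05 in trial 1 to -0.13 in trial 2. YAP1 gave 0.09 (standard error 0.14), WWTR1, which encodes TAZ, 0.10 (0.13), STAT3 -0.18 (0.13) and EP300 0.06 (0.14). Among canonical YAP targets, CTGF had 71 and 34 normalized counts in soft IPN and 47 and 31 in soft col:rBM (log2 fold change -0.36), and CYR61 282 and 231 against 371 and 297 (0.38). ITGB2 gave -0.24. ANKRD1 was listed at 1 and 0 in each gel and S100A7, an antimicrobial S100 gene, at 9 and 12 in soft IPN and 5 and 2 in soft col:rBM, so neither passed the filter. The 41 cell cycle genes (0 called, median 0.02) and 42 actomyosin and focal adhesion genes (0 called, median 0.05) gave medians near that of all genes.

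Cytosolic ribosomal protein genes gave small differences in 1 direction. All 76 tested were lower in soft col:rBM, 75 of them in both trials, against 27.7% of all genes tested, but 0 were called. Their median was -0.30, as -0.19 in trial 1 and -0.41 in trial 2. Library composition moved with this value, and its part in the result was not tested. The 100 most abundant genes held a smaller share in soft col:rBM than in soft IPN, by little in trial 1 and by more in trial 2. Ribosomal protein genes summed to 2651676 normalized counts in soft IPN and 1933867 in soft col:rBM in trial 2. They may form part of that share, so the 2 measures may not be separate. Cholesterol and fatty acid synthesis genes were lower in 28 of 31, with 0 called and a median of -0.16, which became 0.00 without soft col:rBM replicate 2. Hypoxia response and glycolysis genes had a median of -0.24. Its sign was not shared by the trials, with 0.07 in trial 1 against -0.52 in trial 2. Without soft IPN replicate 2 the median was 0.20, in a fit over all gels whose trial term draws on stiff gels too. CA9, a carbonic anhydrase induced by hypoxia, was the member called lower (log2 fold change -1.24). It had 2431 and 4770 normalized counts in soft IPN against 1408 and 1480, with a difference of -0.79 in trial 1 and -1.69 in trial 2. Without soft IPN replicate 2 the log2 fold change of CA9 was 0.02. That fit takes its trial term from the other gels, stiff IPN with 918 and 36 normalized counts among them. Under the TMM, median-of-ratios and upper-quartile rescalings, which shift all genes of a library alike, the median of all genes was -0.015 to -0.004. Medians of the ribosomal, cholesterol, hypoxia, cornified envelope, cytokine, interferon and BMP lists kept their sign, as shifts this small could not turn them. The other lists, of RGD-binding integrins, matrix proteases, immediate early genes, EGF receptors and ERK feedback, unfolded protein stress, NRF2 response, calcium handling, Notch, heat shock and Hippo genes, held 0 called members, with medians from -0.17 to 0.09.

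The stiff gels share no library with the soft ones and offer a second contrast of a col-1 gel with an IPN, although stiff col also lacks rBM and calcium-crosslinked alginate. Of the 42 genes, 33 (78.6%) differed in the same direction between stiff col and stiff IPN, against 55.9% of all genes tested, with 8 of 13 higher and 25 of 29 lower genes. In stiff trial 1 it was 36 (85.7%, against 52.4% of all genes) and in stiff trial 2 it was 32 (76.2%, against 55.3%). The direction alone was read, as no test was made in the stiff gels. Shares over all genes are not those of genes with soft gel differences of like size, as many genes lay near 0 (quartiles -0.15 and 0.15). Across all genes the soft and the stiff contrasts correlated with r = 0.25. SAA1 had 4218 and 6114 normalized counts in stiff IPN and 808 and 1746 in stiff col (log2 difference -2.10), and MUC1 1700 and 3909 against 321 and 736 (-2.40). These differences were close to those of -2.13 and -2.05 in soft gels. CLDN1 had 672 and 2761 normalized counts in stiff IPN and 48 and 96 in stiff col, and ELF3 544 and 712 against 71 and 22. AQP9 was higher in the col-1 gel here too, at 195 and 114 against 27 and 27, and POSTN at 100 and 82 against 47 and 28. Of the genes lower in soft col:rBM, SFTPB (1.67), LAPTM5 (1.20) and C1R (0.25) had the other sign in both stiff trials. CA9 had it in the mean alone (2.23), with -0.04 in stiff trial 1 and 4.50 in stiff trial 2, where stiff IPN was down to 36 normalized counts. Of the higher genes, PGBD5 (-1.32) had the other sign in both stiff trials. In the remaining 4 the stiff trials differed in sign, with -0.76 and 0.13 for KANK4, 0.38 and -0.95 for MIR22HG, 0.56 and -0.73 for ID3, and 0.55 and -0.65 for PLEKHA7.

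**Figure D4:**
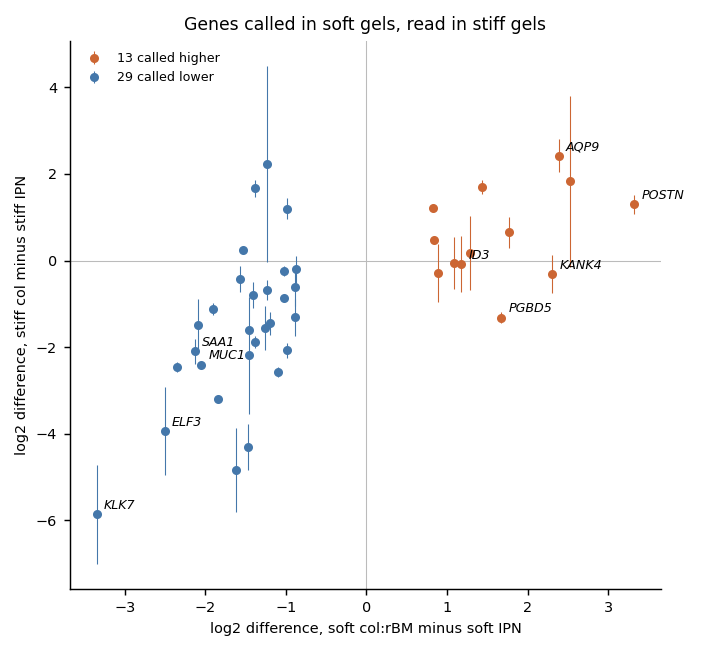
Log2 difference between soft col:rBM and soft IPN (x axis) and between stiff col and stiff IPN (y axis) for the 42 genes called in soft gels. Points are means of 2 trials, vertical lines run from 1 stiff trial to the other, and 33 genes have like signs on both axes.

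The difference between the soft and the stiff contrast was tested in limma over all 8 libraries with the trial as a block. Of 13369 genes 2 (0.015%) were called and 1321 (9.88%) had an unadjusted p under 0.05, and of the 42 genes 1 was called. This was PGBD5, which rose from soft IPN to soft col:rBM but had 333 and 878 normalized counts in stiff IPN and 145 and 321 in stiff col. The contrasts differed by 2.99 (log2, standard error 0.24, adjusted p = 0.0106). The number among the 42 was 15 without stiff IPN replicate 1, 6 without stiff IPN replicate 2 and 0 without either soft IPN library. No other of the 42 genes was shown to respond differently in soft and stiff gels with all libraries in the fit, SFTPB being next with a difference of -3.05 (adjusted p = 0.0688).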

How the data were processed

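MCF10A cells were encapsulated in 4 gels, and 2 libraries were made from each. Libraries were made with the TruSeq RNA kit v2 (without strand) and sequenced in pairs. Per the paper's methods, reads were trimmed, aligned to hg19, filtered (multimapped and poor reads were dropped) and counted per gene with HTSeq. The submitters' notes name Trim Galore 0.3.3, TopHat2 2.0.13, SAMtools 1.1, HTSeq, DESeq2 and R 3.2.0. The deposited values are a signal, read counts that the authors multiplied by 1 factor per library and rounded (normalized counts). Each factor was worked out from gaps and doublings among the deposited whole numbers. Unscaled read counts could not be recovered for enough genes, so no count test was run. The gene annotation used for counting is not given in the sources used here. Columns of no sample numbered 0.

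The table lists 25369 gene symbols. Positions come from GENCODE lifted to hg19, where 21538 current and 1472 older symbols were found, and 28 entries had been turned into dates. Genes with at least 10 normalized counts in at least 2 of the 4 soft gel libraries were kept. Log2(value + 1) was fitted in limma 3.58.1 (statmod 1.5.0, R 4.3.3) with gel and trial as terms, a mean-variance trend and robust moderation, which left 1 residual degree of freedom and a median prior of 9.5. P-values were adjusted by Benjamini-Hochberg, at a threshold of 0.05. The interaction used all 8 libraries. Python 3.11.15, numpy 2.4.6, pandas 2.3.3 and matplotlib 3.10.9 were used for annotation and plots.

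The paper's methods describe 2 independent trials, but do not state that the same replicate number means the same trial in each gel. The differences between replicates 2 and 1 correlated across genes in each of the 6 pairs of gels (r from 0.28 to 0.82), so the trial was used as a block. The pairs with stiff IPN gave the lowest r, 0.28 to 0.4, and the 2 soft gels gave 0.68. A shared trial term thus describes stiff IPN less well in the fits of all 8 libraries. The soft comparison was tested on simulated data (12893 genes, 200 of them changed, 5 runs, trial shifts of the real size). With the block, 85.4% of changes of 1 (log2) and 97.0% of changes of 2 were recovered, at 6.8 false calls on average, and without it 0%. Every simulated gene had the same spread, taken from well-counted genes, besides counting error. Pooling of variance over genes was thus right by design, and these rates may not hold for the real data.

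The comparison, the gene lists and the rule for naming genes were chosen with earlier results of these data known. Named were the 5 largest rises and falls among called genes without overlap, and the 10 largest of each with a mean of at least 100 in the higher gel. Up to 3 called members per list were added, along with genes the paper names and receptors of collagen and laminin. Others are marked in the text. For 1 called gene and 1 list no result is reported here. The 31 lists and 6 marker lists, written from general knowledge or taken from the study, are described by counts and medians alone. Alternatives covered scaling, filter, pseudocount, moderation, block, base composition and single libraries.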

Additional observations from a re-analysis of the deposited data

Results flagged for a closer look

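For PGBD5 and KRT6B the col-1 contrast differed between soft and stiff gels by limma's interaction test over all 8 libraries. The PGBD5 contrast was 2.99 higher in soft than in stiff gels on the log2 scale (adjusted p = 0.0106), at 1.67 in soft and -1.32 in stiff gels, with the same signs in both trials.

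For KRT6B, an inducible keratin that was not called in soft gels, the difference was 3.48 (adjusted p = 0.0106). KRT6B had 51 and 307 normalized counts in soft IPN and 60 and 318 in soft col:rBM, but 616 and 3456 in stiff IPN and 52 and 391 in stiff col. KRT6B has close paralogs, and how the counting split reads among them is uncertain.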

How the results depend on the processing

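The fold changes of the 42 called genes kept their direction under the alternatives, except that of CA9, which ranged from -2.50 to 0.02 without 1 library and turned without soft IPN replicate 2. That fit takes its trial term from the other gels, stiff IPN with 918 and 36 normalized counts of CA9 among them. Within the soft gel trials CA9 gave -0.79 and -1.69. The number of calls did depend on the processing. Against 42 genes, of which 19 were list members, no replicate block gave 0 and 0 (adjusted p of 1 for each called gene), a fit of all 8 libraries with the replicate block 3 and 2, and without it 0 and 0. No filter gave 0 and 0, and no mean-variance trend 0 and 0, with 1077 and 1026 genes at an unadjusted p under 0.05. Median-of-ratios rescaling gave 152 (46 higher, 106 lower) and 36, upper-quartile rescaling 106 and 30, a pseudocount of 5 gave 65 genes, and the replicate block with GC and length correction 244 and 46. These 4 settings kept 41 of the 42 genes each, all but ALDH3A1. TMM rescaling, a pseudocount of 0.5, 10 or more in all 4 libraries and no robust moderation gave 41 to 47. Counting genes that moved by at least 1 (log2) in both trials, added after the data were seen, gave 107. Leaving out any 1 soft gel library gave 0 calls and 0 list members, with a lowest adjusted p from 0.0664 to 0.697. A block leaves no residual degree of freedom among 3 libraries, so this was run over all gels, where the lone library is assumed to vary like the others. The trial term then comes from the complete gels, stiff ones included.

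For the difference between the contrasts, 2 genes became 0 with no replicate block, 6 with no filter and 0 with no mean-variance trend. Leaving out 1 library gave 0 to 675, with 675 when stiff IPN replicate 1 was left out, 41 without its replicate 2, 10 without stiff col replicate 2 and 4 without soft col:rBM replicate 1. A test of unscaled counts in edgeR or DESeq2 was planned but not run, as the deposited values are scaled and rounded. Depth limits statements on genes near 3 reads, such as KLK7, KLK10, DDR2 and ANKRD1.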

Other observations

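Of the 107 genes that moved by at least 1 (log2) the same way in both trials, those below the threshold of the test include further secreted and surface proteins. They were singled out after their values were seen, and none was called. RARRES1, a retinoid-induced membrane protein, had 51 and 14 normalized counts in soft IPN and 2 and 2 in soft col:rBM (at least 10.2-fold lower against a floor of 3 reads per library). MUC16, another membrane mucin, had 29 and 17 against 2 and 2 (at least 7.19-fold lower). LCN2, the iron-sequestering antimicrobial protein lipocalin 2, had 26 and 20 against 9 and 8, and C1S, the partner protease of C1R, had 110 and 88 against 47 and 31. On the other side FABP4, a fatty acid binding protein, had 9 and 14 against 27 and 117. FABP4 is also a marker of adipocytes, of which 4 of 7 markers were tested and LEP and LPL were at or under the detection limit, with a summed level of 73 to 166 normalized counts per library.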
